A study of Mus musculus with 2 samples.

Results

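The genes described here are those of antigen presentation by the major histocompatibility complex (MHC). They were every gene whose symbol begins with H2-, the mouse name of the complex, together with B2m, Tap1, Tap2, Tapbp, Tapbpl, Erap1, Cd74, Ciita, Nlrc5, Cd1d1, Cd1d2, Mr1, Ctss and Ifi30. The rule found 56 of the 23284 genes listed, and 41 of the 56 reached 1 FPKM (fragments per kilobase of transcript, scaled to the depth of the library) in at least 1 library. All 41 did so in both. The mRNA of small intestinal epithelial cells was sequenced from miR-215-/- mice, which lack the microRNA miR-215, and from wild-type miR-215+/+ mice. There was 1 library per genotype, and the labels give neither strain, sex nor age, nor whether a library was made from 1 animal or from pooled animals. No difference therefore has a replicate check or a p-value, and a gene is called higher or lower for its level in the knockout library, set against wild type.

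Class I molecules pair a heavy chain with beta-2 microglobulin and present peptides from the cytosol to CD8 T cells. The classical heavy chains H2-K and H2-D do this in nearly all cells, whereas the nonclassical heavy chains of the Q, T and M regions have narrower or unknown roles, several of them as ligands of intraepithelial lymphocytes or natural killer cells. Class II molecules pair an alpha with a beta chain, are loaded in endosomes and present to CD4 T cells. Professional antigen-presenting cells carry them, and so do enterocytes of the small intestine, where interferon gamma raises them through the transactivator Ciita.

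The sequences below show the missing microRNA and promoters of both classes, whose shared and differing letters are counted after them. The mature miR-215 and its relative miR-192, which is encoded elsewhere and was not deleted by the label, are given from RefSeq on GRCm38 with the seed, bases 2 to 8, in capitals. Both have the same seed.
mmu-miR-215-5p, chr1:185313610-185313630, plus strand: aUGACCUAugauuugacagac
mmu-miR-192-5p, chr19:6264857-6264877, plus strand: cUGACCUAugaauugacagcc

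Class I and class II promoters share an upstream module of X and Y boxes, bound by the RFX and NF-Y factors, on which Nlrc5 and Ciita act. Promoter windows of 160 bases are shown from RefSeq, build GRCm38.p6, for 3 class II genes. Capitals mark the inverted CCAAT box ATTGG of the Y box on either strand, the letters AGCAAC of the X1 box, and the X2 letters TGACG, or TGACGTCA where the longer run was found.
H2-Aa, chr17:34287824-34287983, minus strand: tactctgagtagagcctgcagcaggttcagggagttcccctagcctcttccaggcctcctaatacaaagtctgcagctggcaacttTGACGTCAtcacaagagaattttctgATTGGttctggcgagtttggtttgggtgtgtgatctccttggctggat
H2-Eb1, chr17:34305707-34305866, plus strand: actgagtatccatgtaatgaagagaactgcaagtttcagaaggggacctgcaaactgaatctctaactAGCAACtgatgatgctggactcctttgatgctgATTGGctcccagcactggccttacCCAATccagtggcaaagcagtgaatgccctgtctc
H2-Ob, chr17:34238743-34238902, plus strand: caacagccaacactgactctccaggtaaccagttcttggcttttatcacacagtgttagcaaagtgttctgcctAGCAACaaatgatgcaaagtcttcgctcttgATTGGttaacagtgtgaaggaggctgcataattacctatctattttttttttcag

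The next 3 windows are those of 2 nonclassical heavy-chain genes and of the light-chain gene. Capitals mark ATTGG on either strand, TGACG and TTTCACTT, a core of the interferon-stimulated response element of class I promoters.
H2-Q4, chr17:35379457-35379616, plus strand: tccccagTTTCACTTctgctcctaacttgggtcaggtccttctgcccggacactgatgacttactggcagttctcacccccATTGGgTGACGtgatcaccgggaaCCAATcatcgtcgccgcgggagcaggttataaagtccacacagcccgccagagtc
H2-Q7, chr17:35438980-35439139, plus strand: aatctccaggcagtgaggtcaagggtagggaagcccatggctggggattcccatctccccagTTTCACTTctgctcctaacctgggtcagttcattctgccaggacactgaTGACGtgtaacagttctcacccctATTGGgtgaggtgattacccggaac
B2m, chr2:122147526-122147685, plus strand: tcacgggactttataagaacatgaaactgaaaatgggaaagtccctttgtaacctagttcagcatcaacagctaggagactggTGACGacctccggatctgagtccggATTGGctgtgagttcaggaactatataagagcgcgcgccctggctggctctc

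Promoters of 38 of the 56 genes were matched among 32851 promoters, and the 250 bases before each start were searched on both strands. ATTGG was found in 19 of 22 class I heavy-chain genes and in 8 of 10 class II genes, against 33.8% of all promoters. The class II genes without it were Ctss and Ifi30, the lysosomal enzymes. TGACG was found in 11 of 22 class I and 2 of 10 class II genes, against 17.8% of all promoters. The whole TGACGTCA, which contains TGACG, was found in H2-Aa alone among these genes and in 1.55% of all promoters. TTTCACTT was found in 9 of 22 class I heavy-chain genes and in none of the 10 class II genes (1.36% of all), and AGCAAC in none of the 22 and in 4 of the 10 (12.2% of all). The full interferon-stimulated response element, a pair of TTTC repeats with any 2 bases between them that can overlap TTTCACTT, was found in 2 of 22 class I and 1 of 10 class II genes (2.98% of all). TGATG, a variant of the X2 letters, was found in 19 of 22 and 8 of 10 (34.5% of all). TTTCACTT, AGCAAC and TGATG were added to the search after the sequences had been read. A match is a description of letters and not of a bound site.

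The 2 libraries were close in estimated depth. For a transcript of 1500 nt, 1 FPKM stood for an estimated 13.1 fragments in the knockout library and 12.6 in the wild-type library. The summed FPKM, which do not measure depth, were 683884 in the knockout library and 750631 in the wild-type library. The Mir215 hairpin was listed at 0 in the knockout library and at 137 FPKM in the wild-type library, while the Mir192 hairpin, of the same seed and not deleted, was listed at 387 FPKM in the knockout library and 0 in the wild-type library. Values of such short genes rest on few fragments and are a weak check of the labels. All 14 epithelial markers were well above 1 FPKM in both libraries, the fatty acid binding protein gene Fabp2 at 15926 FPKM in the knockout library and 18795 FPKM in the wild-type library, so the labelled cell type is borne out by its markers. Lymphocyte RNA was present too, and the granzyme gene Gzma stood at 261 FPKM in the knockout library and 250.5 FPKM in the wild-type library. In such bulk samples fewer cells of a type and less RNA per cell cannot be told apart.

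Log2 ratios were taken as log2(FPKM + 1) in the knockout library minus log2(FPKM + 1) in the wild-type library, a scale that understates differences of low genes, while folds are plain FPKM ratios. Of the 41 genes kept at 1 FPKM, 24 were above 0 and 17 below, where 44% of all 11504 kept genes were above 0. At least 2-fold higher on the log2 scale were 4 genes, H2-Bl, H2-Q7, H2-Q8 and Nlrc5, against 1.34% of all kept genes, and none was 2-fold lower, against 2.04%. At least 1.5-fold higher were 9 genes, against 4.83%, and 1.5-fold lower were 2, H2-T3 and H2-T9, against 7.26%. These shares depend on the scaling between libraries. As deposited, 154 of all kept genes were 2-fold higher and 235 lower, and with the knockout values scaled to an equal sum 208 were higher and 185 lower, while the members went to 5 higher and 0 lower. The median log2 ratio of all kept genes was -0.05 as deposited and 0.07 under that scaling.

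Counting error was estimated for the 38 kept genes with an annotated transcript, as an exact 95% Clopper-Pearson interval of the fold. It excluded no difference for 15 of them in the higher direction, against 19.6% of all kept genes with an interval, and for 11 in the lower direction, against 30.4%. These intervals cover counting error only, not the spread between animals.

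**Figure D1:**
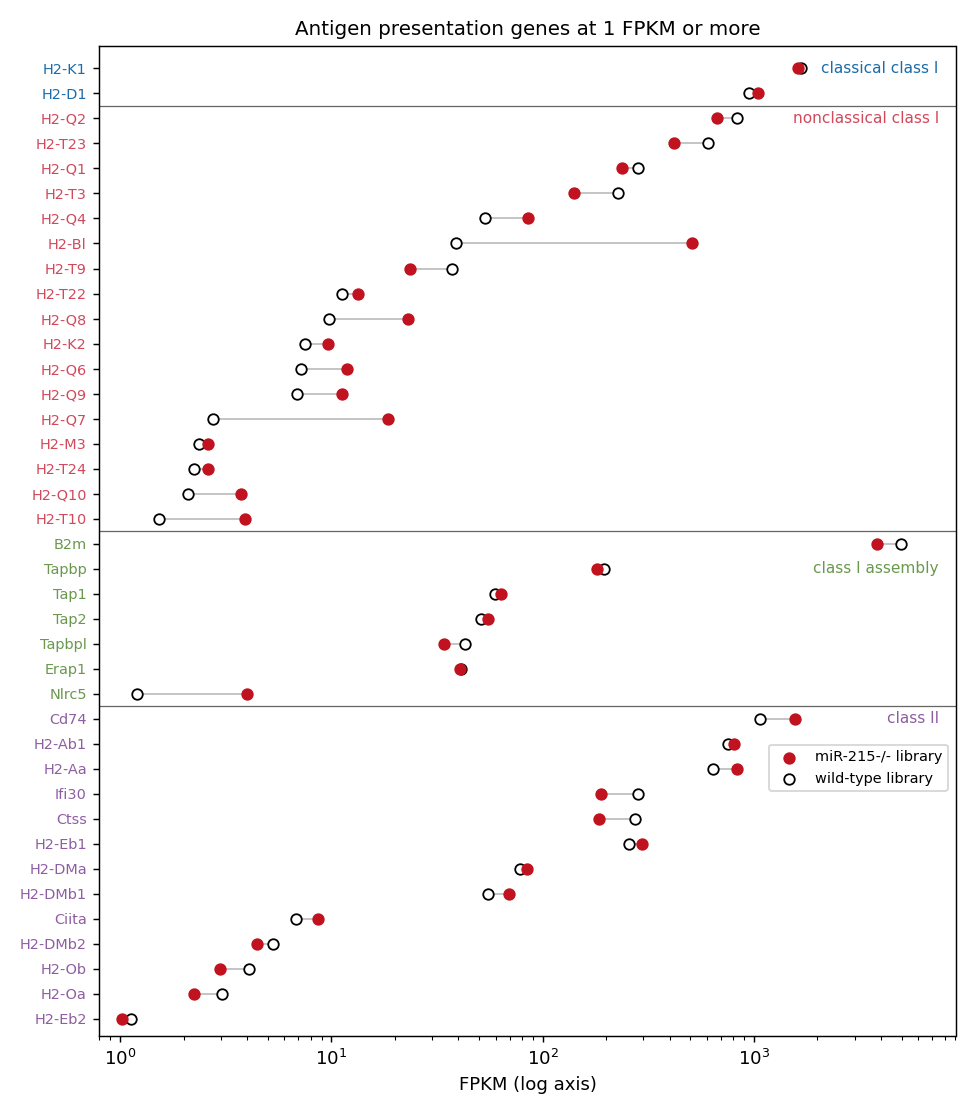
FPKM on a log axis of the 39 presentation genes at 1 FPKM or more, with the miR-215-/- library as filled red points and the wild-type library as open points, 1 library each, ordered within a class by wild-type level. Most pairs lie close together over more than 3 orders of magnitude, and the widest gaps are those of H2-Bl, H2-Q7 and Nlrc5, at 509.8, 18.6 and 4.0 FPKM in the miR-215-/- library and 39.2, 2.76 and 1.2 FPKM in the wild-type library.

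The classical class I heavy chains were abundant and nearly level between the libraries. H2-K1 (chr17:33996017-34000347, minus strand) stood at 1612 FPKM in the knockout library and 1670.2 FPKM in the wild-type library, a log2 ratio of -0.05. H2-D1 (chr17:35262730-35267499, plus strand) stood at 1042 FPKM in the knockout library and 944 FPKM in the wild-type library, a log2 ratio of 0.14. Their ratios lay on either side of 0, and that of H2-K1 turned to 0.08 with the knockout values scaled to an equal sum. Together they summed to 2654 FPKM in the knockout library and 2615 FPKM in the wild-type library, a ratio of 1.01. In rank of FPKM among the kept genes, H2-K1 was at place 40 in the knockout library and 44 in the wild-type library, so both libraries held it among their most abundant mRNAs. H2-L, a classical heavy chain of some strains, is not among the genes listed.

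The nonclassical heavy chains differed most among themselves. Of 28 genes, 17 were kept, 12 of these above 0 and 5 below, with a median log2 ratio of 0.32, against -0.05 over all kept genes. Their ratios ran from -0.69 to 3.67. Their summed level was nevertheless 2186 FPKM in the knockout library and 2137 FPKM in the wild-type library, a ratio of 1.02. Without H2-Bl and H2-Q7 the sums were 1657 FPKM in the knockout library and 2095 FPKM in the wild-type library, a ratio of 0.791, so the level total rested on H2-Bl.

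H2-Bl, which GENCODE M21 on GRCm38 calls a polymorphic pseudogene in the T region (chr17:36080115-36084223, minus strand), stood at 509.8 FPKM in the knockout library and 39.2 FPKM in the wild-type library. These values rested on an estimated 3367 fragments in the knockout library and 251 in the wild-type library, and the fold was 13 with a counting interval of 11.5 to 14.9. H2-Bl was at place 219 of the kept genes in the knockout library and 2555 in the wild-type library. Its log2 ratio of 3.67 lay above that of 99.8% of all kept genes. Of the 50-base stretches in its annotated transcripts, 90.6% occur in no other annotated gene, and the gene it shares most with is H2-Q1, at 4.4%.

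The Q region fell into an abundant pair that was lower and a set of 6 genes that were all higher. H2-Q1 stood at 237 FPKM in the knockout library and 282 FPKM in the wild-type library, and H2-Q2 at 670.0 FPKM in the knockout library and 831 FPKM in the wild-type library, log2 ratios of -0.25 and -0.31. H2-Q4, H2-Q6, H2-Q7, H2-Q8, H2-Q9 and H2-Q10 were all at least 1.5-fold higher, 6 of 6, and summed to 154 FPKM in the knockout library and 82.4 FPKM in the wild-type library, a ratio of 1.87. The highest of them was H2-Q4, at 85.8 FPKM in the knockout library and 53.7 FPKM in the wild-type library, 1.60-fold with an interval of 1.46 to 1.74.

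H2-Q6 to H2-Q9 encode Qa-2, a class I molecule held in the membrane by a lipid anchor. H2-Q7 (chr17:35439155-35443773, plus strand), whose promoter is shown above, stood at 18.6 FPKM in the knockout library and 2.76 FPKM in the wild-type library, 6.75-fold with an interval of 4.64 to 9.85. H2-Q8 stood at 23.1 FPKM in the knockout library and 9.78 FPKM in the wild-type library, 2.36-fold. H2-Q6 stood at 11.9 and H2-Q9 at 11.3 FPKM in the knockout library, against 7.17 FPKM for H2-Q6 and 6.88 FPKM for H2-Q9 in the wild-type library. The order of these genes by level thus differed, with H2-Q7 the lowest of the 4 in the wild-type library and second to H2-Q8 in the knockout library. H2-Q10, known as a secreted heavy chain of the liver, stood at 3.75 FPKM in the knockout library and 2.11 FPKM in the wild-type library.

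Near-identical copies make the split of reads among these genes uncertain. Of the 50-base stretches of H2-Q6 68.0%, of H2-Q7 73.6% and of H2-Q4 78.2% occur in no other annotated gene, and H2-Q7 shares 14% with H2-Q10. H2-Q8, H2-Q9 and H2-T9 have no annotated transcript in GENCODE M21, so their overlap was not measured and their values carry no counting interval. Stretches that other genes share with them were not counted, so the shares found in no other annotated gene are upper limits. The sum of H2-Q6 to H2-Q9, which depends less on that split, was 64.9 FPKM in the knockout library and 26.6 FPKM in the wild-type library, a ratio of 2.44. Class I genes differ between inbred strains in number and sequence, and with no strain in the labels a difference in alleles and a difference in RNA level cannot be told apart.

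The T region held both the genes 1.5-fold lower and 2 of those higher. H2-T3 encodes the thymus leukemia antigen, which intestinal epithelial cells carry and which binds CD8 alpha homodimers of intraepithelial lymphocytes. It stood at 141 FPKM in the knockout library and 229 FPKM in the wild-type library, 0.617-fold with an interval of 0.589 to 0.646. H2-T23 encodes Qa-1, which shows leader peptides of other class I chains to the receptor CD94/NKG2, and stood at 417 FPKM in the knockout library and 609.7 FPKM in the wild-type library, 0.685-fold with an interval of 0.661 to 0.709. H2-T9 stood at 23.6 FPKM in the knockout library and 37.4 FPKM in the wild-type library. These 3 genes were lower in the knockout library, and 99.1% of the 50-base stretches of H2-T3 occur in no other annotated gene. With the knockout values scaled to an equal sum or equal upper quartiles, H2-T3 and H2-T9 stayed below 0 but no longer reached 1.5-fold.

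H2-T10 and H2-T22 are known as ligands of gamma delta T cells, and they share 31.7% of the stretches of H2-T10 and 31.2% of those of H2-T22. H2-T10 stood at 3.90 FPKM in the knockout library and 1.53 FPKM in the wild-type library, 2.54-fold with an interval of 1.83 to 3.68. H2-T22 stood at 13.4 FPKM in the knockout library and 11.3 FPKM in the wild-type library, with an interval of 0.962 to 1.46 that included no difference. H2-T24 stood at 2.60 FPKM in the knockout library and 2.23 FPKM in the wild-type library. H2-K2, a pseudogene beside H2-K1 by annotation, stood at 9.65 FPKM in the knockout library and 7.54 FPKM in the wild-type library, and its interval of 0.982 to 1.68 also included no difference.

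The M region was nearly silent. Of its 12 genes only H2-M3, which presents N-formylated peptides, was kept, at 2.60 FPKM in the knockout library and 2.36 FPKM in the wild-type library. H2-M2 stood at 0.449 FPKM in the knockout library and 0.777 FPKM in the wild-type library, and H2-M10.6 at an estimated 1 fragment in each. H2-M1, H2-M5, H2-M9, H2-M11 and H2-M10.1 to H2-M10.5 were listed at 0 in both.

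**Figure D2:**
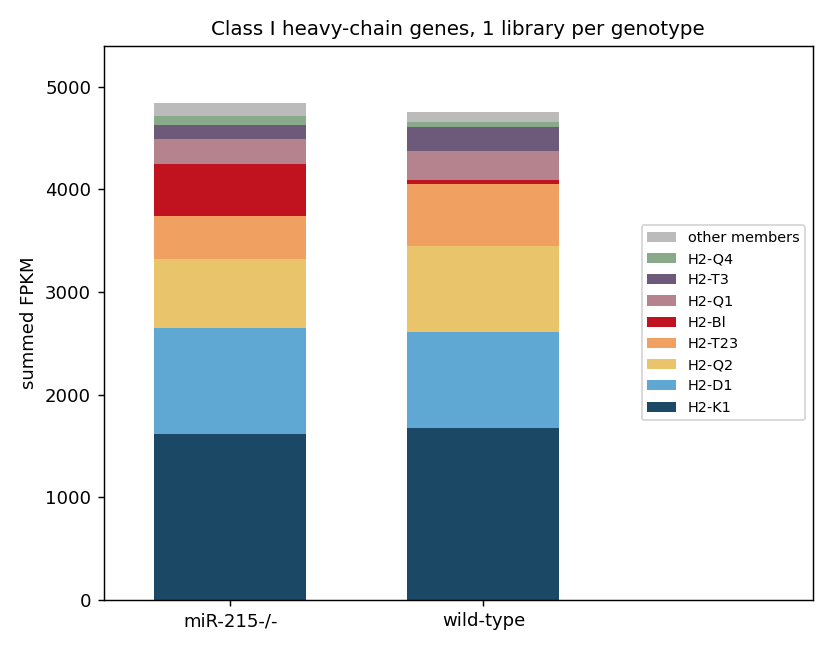
Summed FPKM of the 30 classical and nonclassical class I heavy-chain genes, stacked by gene, in the miR-215-/- library (left) and the wild-type library (right), 1 library each. The stacks reach 4840 FPKM in the miR-215-/- library and 4752 FPKM in the wild-type library, H2-K1 and H2-D1 fill a like part of both, and the red block of H2-Bl takes 10.53% of the knockout stack and 0.824% of the wild-type stack.

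The sum of all class I heavy chains hardly differed, while its makeup did. It was 4840 FPKM in the knockout library and 4752 FPKM in the wild-type library, a ratio of 1.02, and the classical pair took 54.8% in the knockout library and 55.0% in the wild-type library. H2-Bl took 10.53% in the knockout library and 0.824% in the wild-type library. H2-T23 took 8.62% in the knockout library and 12.8% in the wild-type library. H2-Q2 took 13.8% in the knockout library and 17.5% in the wild-type library. H2-Bl was 471 FPKM higher. The other 29 heavy chains summed to 4330 FPKM in the knockout library and 4713 FPKM in the wild-type library, 383 FPKM lower and a ratio of 0.919. The ratio of summed FPKM over all kept genes was 0.911, a sum in which the most abundant genes weigh most. Among the 29, the classical pair had a ratio of 1.01. The nonclassical genes without H2-Bl and H2-Q7 had a ratio of 0.791. Whether the lower remainder is particular to heavy chains was not tested.

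The region also holds class I-like genes that the rule does not take in. Of these, 3 share at least 5% of their stretches with the heavy chains, and they were singled out after their values had been seen. Gm11127 stood at 82.1 FPKM in the knockout library and 163 FPKM in the wild-type library, and Gm8909 at 95.4 FPKM in the knockout library and 204 FPKM in the wild-type library. Gm7030 went the other way, at 15.2 FPKM in the knockout library and 6.53 FPKM in the wild-type library. With these 3 added, the heavy chains summed to 5032 FPKM in the knockout library and 5125 FPKM in the wild-type library, a ratio of 0.982.

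**Figure D3:**
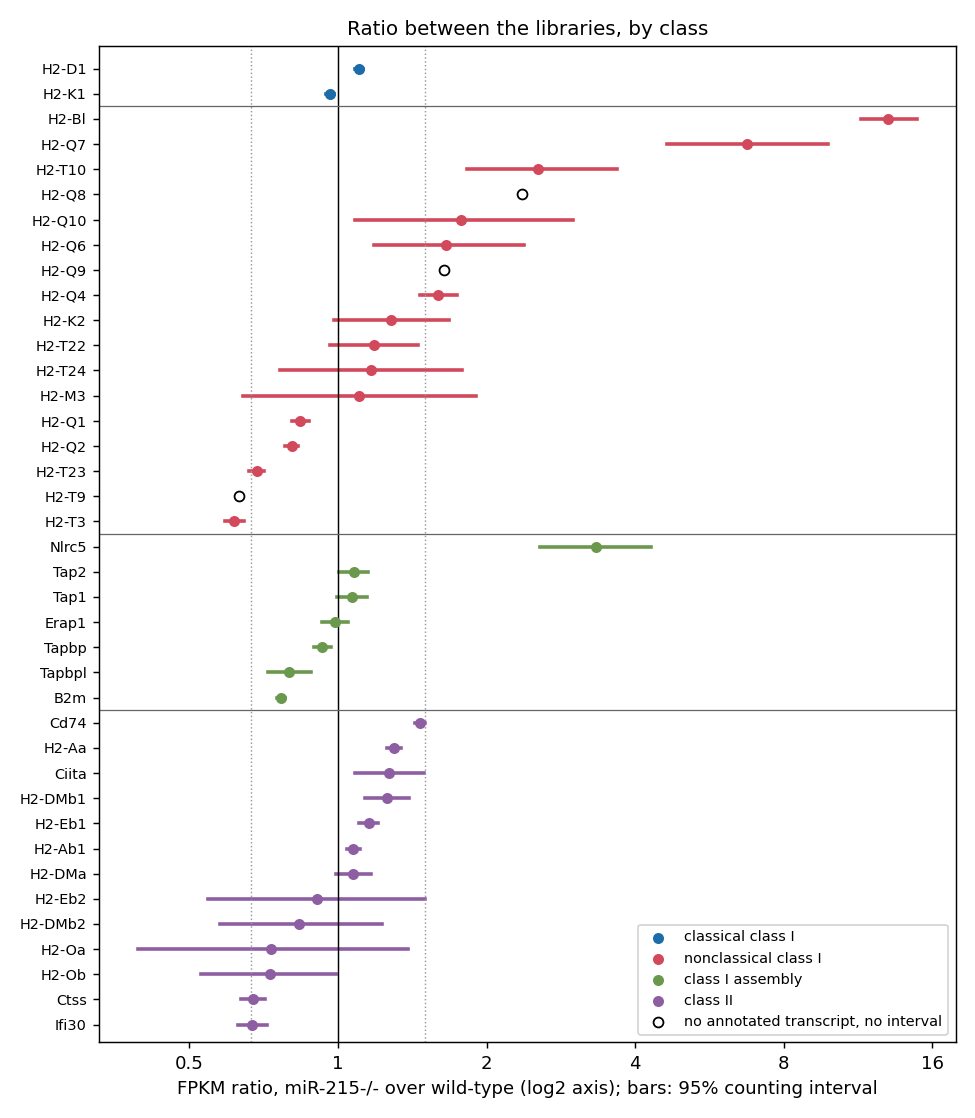
FPKM ratio of the miR-215-/- library over the wild-type library on a log2 axis for the 39 presentation genes kept, coloured by class, with bars for the 95% counting interval and dotted lines at 1.5-fold in each direction. Nonclassical class I genes span 0.617 to 13, class II genes lie between 0.670 and 1.47, and the pair of classical genes lies at 0.965 and 1.10.

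Among the genes that assemble class I, the light chain was lower and the peptide supply nearly level. B2m (chr2:122147686-122153083, plus strand), the light chain shared by all these heavy chains, was the most abundant of the 56 genes, at 3824 FPKM in the knockout library and 4989 FPKM in the wild-type library. Its fold was 0.767 with an interval of 0.754 to 0.779, and its FPKM over that of the summed heavy chains was 0.790 in the knockout library and 1.05 in the wild-type library. That sum includes H2-Bl, a polymorphic pseudogene by annotation. Without H2-Bl it was 4330 FPKM in the knockout library and 4713 FPKM in the wild-type library, so part of the gap between the ratios rests on that gene. Tap1 and Tap2 form the transporter that brings peptides into the endoplasmic reticulum. Tap1 stood at 63.7 FPKM in the knockout library and 59.8 FPKM in the wild-type library, and Tap2 at 54.9 FPKM in the knockout library and 51.1 FPKM in the wild-type library. Their ratio to each other was 1.16 in the knockout library and 1.17 in the wild-type library, so the chains of the transporter kept nearly the same balance.

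Tapbp, or tapasin, holds the heavy chain at the transporter, and stood at 181 FPKM in the knockout library and 195 FPKM in the wild-type library. Its relative Tapbpl, which edits peptides, stood at 34.1 FPKM in the knockout library and 42.7 FPKM in the wild-type library, 0.797-fold with an interval of 0.722 to 0.880. Erap1, which trims peptides, stood at 40.6 FPKM in the knockout library and 41.2 FPKM in the wild-type library. The log2 ratios of Tapbp, -0.10, and Erap1, -0.02, turned above 0 with the knockout values scaled to an equal sum, so neither has a fixed direction.

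Nlrc5, the transactivator of class I genes, was the exception in size. It stood at 4.0 FPKM in the knockout library and 1.2 FPKM in the wild-type library, 3.33-fold with an interval of 2.57 to 4.31. These values rested on an estimated 273 fragments in the knockout library and 79 in the wild-type library. With the shortest annotated transcript as its length the interval widened to 0.551 to 31.2, which includes no difference. Among class I genes, the classical heavy chains, B2m and Tap1, its targets by background knowledge, had log2 ratios between -0.38 and 0.14. The 17 nonclassical heavy chains kept ran from -0.69 to 3.67, with 12 above 0 and 5 below. Whether Nlrc5 bears on any of these ratios was not tested. The median over the 7 assembly genes was -0.02.

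Other genes of the class I pathway were taken from a list of 23, all kept. Of these, 13 were above 0, against 44% of all kept genes, with a median of 0.08. None was 2-fold apart, against 1.34% of all kept genes higher and 2.04% lower. At least 1.5-fold higher were 2, against 4.83%. The 2 were chaperones of the endoplasmic reticulum. Hspa5 stood at 337 FPKM in the knockout library and 192 FPKM in the wild-type library, and Calr, a part of the peptide loading complex, at 415 FPKM in the knockout library and 275 FPKM in the wild-type library. The chaperone Canx stood at 116 FPKM in the knockout library and 82.6 FPKM in the wild-type library. Class I-like genes outside the complex stayed under 1 FPKM in both libraries. Cd1d1, which presents lipids, stood at 0.967 FPKM in the knockout library and 0.753 FPKM in the wild-type library, Mr1, which presents vitamin B metabolites, at 0.172 FPKM in the knockout library and 0.312 FPKM in the wild-type library, and Cd1d2 at 0.0954 FPKM in the knockout library and 0 in the wild-type library.

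Among the class II genes the abundant chains H2-Aa, H2-Ab1, H2-Eb1, H2-DMa and H2-DMb1, the invariant chain and the transactivator were higher, and the lysosomal enzymes Ctss and Ifi30 and the low chains H2-Eb2, H2-DMb2, H2-Oa and H2-Ob lower, none by 1.5-fold. Of 14 genes 13 were kept, 7 above 0 and 6 below, with a median log2 ratio of 0.10 against -0.05 over all kept genes. The 7 genes above 0 are those of which a shift was already known from earlier results on these libraries, so the count is no independent support. The summed level of the class was 4057 FPKM in the knockout library and 3434 FPKM in the wild-type library, a ratio of 1.18.

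H2-Aa and H2-Ab1 encode the chains of the A molecule. H2-Aa (chr17:34282744-34287823, minus strand) stood at 829.9 FPKM in the knockout library and 639 FPKM in the wild-type library, 1.30-fold with an interval of 1.25 to 1.34. H2-Ab1 (chr17:34257689-34269419, plus strand) stood at 809.8 FPKM in the knockout library and 753 FPKM in the wild-type library, 1.07-fold with an interval of 1.04 to 1.11. The alpha over beta ratio of FPKM was 1.02 in the knockout library and 0.848 in the wild-type library, close to even in both. H2-Eb1, a beta chain of the E molecule, stood at 297 FPKM in the knockout library and 257 FPKM in the wild-type library, while H2-Ea-ps, the symbol of its alpha partner and a polymorphic pseudogene by annotation, was listed at 0 in both. H2-Eb2 stood at 1.03 FPKM in the knockout library and 1.13 FPKM in the wild-type library.

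Cd74, the invariant chain that blocks the groove until the endosome, was the most abundant class II gene. It stood at 1573 FPKM in the knockout library and 1073 FPKM in the wild-type library, 1.47-fold with an interval of 1.43 to 1.502, and it passed 1.5-fold under all 3 scalings tried. In rank of FPKM it was at place 41 in the knockout library and 92 in the wild-type library. Ciita (chr16:10480059-10528418, plus strand), the transactivator of the class, stood at 8.68 FPKM in the knockout library and 6.85 FPKM in the wild-type library, 1.27-fold with an interval of 1.08 to 1.49. With the shortest annotated transcript the interval of Ciita was 0.769 to 2.05, which includes no difference.

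H2-DM exchanges the remnant of the invariant chain for antigen peptides, and H2-O inhibits H2-DM, chiefly in B cells. H2-DMa stood at 84.0 FPKM in the knockout library and 78.2 FPKM in the wild-type library, and H2-DMb1 at 69.0 FPKM in the knockout library and 54.9 FPKM in the wild-type library. H2-DMb2, which shares 21.2% of its stretches with H2-DMb1, stood at 4.44 FPKM in the knockout library and 5.32 FPKM in the wild-type library. H2-DMb1 made up most of the beta chain in both libraries. The inhibitor genes were low. H2-Oa stood at 2.23 FPKM in the knockout library and 3.05 FPKM in the wild-type library, an interval of 0.394 to 1.39 for its fold. H2-Ob stood at 2.97 FPKM in the knockout library and 4.08 FPKM in the wild-type library, an interval of 0.529 to 0.991. With the shortest annotated transcript the interval of H2-Ob was 0.318 to 1.53, which includes no difference. Summed H2-O came to 3.30% of summed H2-DM in the knockout library and 5.15% in the wild-type library.

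Both lysosomal enzymes lay below 0. Ctss, cathepsin S, which cuts the invariant chain, stood at 185 FPKM in the knockout library and 275 FPKM in the wild-type library, 0.673-fold with an interval of 0.637 to 0.711. Ifi30, a thiol reductase that opens disulfide bonds of antigens, stood at 189.6 FPKM in the knockout library and 283 FPKM in the wild-type library, 0.670-fold with an interval of 0.627 to 0.717. The FPKM of Ctss over that of Cd74 was 0.118 in the knockout library and 0.257 in the wild-type library.

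Among 20 further class II pathway genes 16 were kept, 7 above 0 and 9 below, with a median of -0.08. Of all kept genes, 44% were above 0. Of the proteases in this list Ctsl, Lgmn, Ctsb and Ctsd lay below 0 and Ctsh and Ctse above. Ctsl stood at 14.2 FPKM in the knockout library and 25.0 FPKM in the wild-type library, Lgmn at 23.9 FPKM in the knockout library and 36.0 FPKM in the wild-type library, and Ctsb at 119 FPKM in the knockout library and 162 FPKM in the wild-type library. Ctsh stood at 30.3 FPKM in the knockout library and 25.2 FPKM in the wild-type library. At 2-fold was 1 gene of the list, against 1.34% of all kept genes higher and 2.04% lower. It was Cd274, which encodes the checkpoint ligand PD-L1, at 6.88 FPKM in the knockout library and 2.66 FPKM in the wild-type library. Rfx5, an X-box factor, stood at 3.05 FPKM in the knockout library and 3.92 FPKM in the wild-type library. Of 23 genes of interferon gamma signalling 21 were kept, 13 above 0, with a median of 0.23. Of the 21, 5 were at least 1.5-fold higher and 1 was 1.5-fold lower, against 4.83% and 7.26% of all kept genes. Those higher were Gbp2, Iigp1, Cxcl9, Irgm1 and Irgm2. Gbp2 stood at 7.03 FPKM in the knockout library and 3.51 FPKM in the wild-type library. The gene lower was Cxcl11, at 2.01 FPKM in the knockout library and 5.0 FPKM in the wild-type library, an estimated 28 and 67 fragments.

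Other cells that carry class II were looked at through their markers. Of all kept genes, 44% were above 0, the share to set beside the counts below. Of 20 macrophage and dendritic cell markers 12 were kept, 10 of them above 0, with a median of 0.45. Their sum over the list was 119 FPKM in the knockout library and 104 FPKM in the wild-type library. Of the 12 kept, 3 were at least 1.5-fold higher, C1qa, C1qc and Itgax, against 4.83% of all kept genes, and 0 were 1.5-fold lower, against 7.26%. Itgax stood at 2.82 FPKM in the knockout library and 1.48 FPKM in the wild-type library. The dendritic cell markers Flt3, Xcr1, Zbtb46 and Clec9a stayed under 1 FPKM in both libraries, and none of the 20 markers was at 0 in both. C1qa stood at 12.3 FPKM in the knockout library and 4.93 FPKM in the wild-type library, whereas Fcer1g stood at 16.5 FPKM in the knockout library and 24.8 FPKM in the wild-type library. Of 10 B cell markers 9 were kept and 8 of them lay below 0, with a median of -0.18. Their sum was 44.0 FPKM in the knockout library and 54.0 FPKM in the wild-type library. H2-Oa and H2-Ob were also lower, but the interval of H2-Oa included no difference. So did that of H2-Ob with the shortest annotated transcript. All 16 endothelial and stromal markers were above 0, 12 of them kept, with a sum of 58.0 FPKM in the knockout library and 17.5 FPKM in the wild-type library. The part of these cells in the class I and class II values was not tested.

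**Figure D4:**
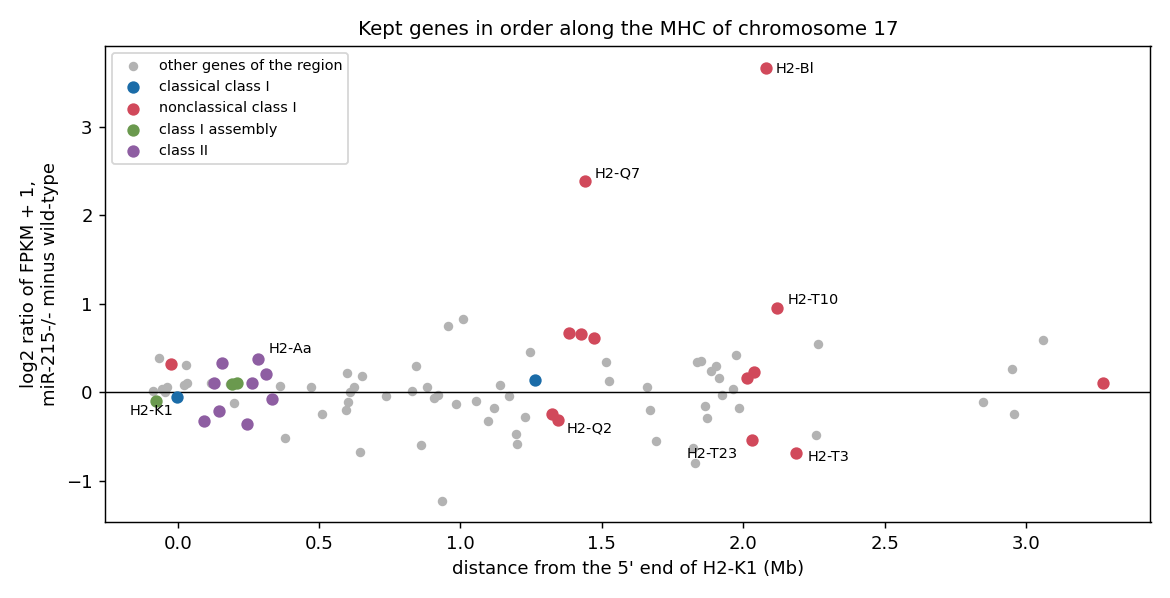
Log2 ratio of FPKM + 1, miR-215-/- minus wild-type, for 28 presentation genes (coloured by class) and 66 other genes of the region (grey) at 1 FPKM or more, by distance in Mb from the 5′ end of H2-K1 along chromosome 17. Class II genes near the left lie between -0.36 and 0.38, and the nonclassical genes of the Q and T regions lie from -0.69 for H2-T3 to 3.67 for H2-Bl.

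Side by side, the classes differed in spread more than in their middle. The median log2 ratio was 0.05 over the 2 classical genes, 0.32 over the 17 nonclassical genes kept and 0.10 over the 13 class II genes kept. The ranges were -0.05 to 0.14, -0.69 to 3.67 and -0.57 to 0.55, in the same order. A range widens with the number of genes, and 2 classical genes can hardly show a spread. At 1.5-fold apart in either direction were 0 classical, 10 nonclassical and 0 class II genes. Of all kept genes, 4.83% were 1.5-fold higher and 7.26% lower. With 1 library per genotype these differences between classes have no test. Low levels, at which counting error is larger, were part of this comparison, with 10 of the 17 nonclassical and 5 of the 13 class II genes under 20 FPKM in the wild-type library. Of the 10 nonclassical genes 1.5-fold apart, H2-Bl, H2-T3, H2-T9 and H2-Q4 were not among these low genes. H2-Q6, H2-Q7, H2-Q8, H2-Q9, H2-Q10 and H2-T10 were.

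Along the complex, runs of one sign, such as H2-Q4 to H2-Q10 above 0, stood beside genes of the other sign. H2-Q2 and H2-Q4 lie on the same strand of the Q region and had log2 ratios of -0.31 and 0.67. H2-T23 and H2-Bl, in the same orientation in the T region, lay at -0.55 and 3.67. Of the 66 other kept genes drawn, 35 were above 0, against 44% of all kept genes, with a median of 0.01. Their one 2-fold difference on the log2 scale of FPKM + 1 was Neu1, a lysosomal sialidase gene, at 21.4 FPKM in the knockout library and 51.5 FPKM in the wild-type library. By plain FPKM ratio some low genes also passed 2-fold, such as Hspa1b, 2.33-fold higher, and Tnf, at 0.433-fold. H2-Ke2 and H2-Ke6 carry the symbol for their place in the region and present nothing, and had log2 ratios of -0.01 and 0.08.

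The letters TAGGTCA, which pair with the shared seed of miR-215 and miR-192, were searched in the longest annotated 3′ untranslated region of each gene. They were found in 2 of 36 kept members, 5.56%, against 6.85% of 10995 kept genes. The members were the transactivators, which makes their sites worth showing. The heptamer is in capitals, in 27 bases of the mRNA strand written as DNA.
Ciita site, mRNA strand, start of heptamer 538 nt after the stop codon: ccataaacttTAGGTCAaagctgagtc
Nlrc5 site, mRNA strand, start of heptamer 338 nt after the stop codon: atactcagagTAGGTCAaatgtagaat

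The site is in 4 of 6 coding transcripts of Ciita and in 3 of 4 of Nlrc5. In both the heptamer is followed by A, an octamer found in 142 kept genes, 1.29%. The median log2 ratio of these 142 genes was 0.02, against -0.06 over the 10242 kept genes without the heptamer. Beside it, Ciita lay at 0.30 and Nlrc5 at 1.18. No class I heavy chain, class II chain, B2m or Cd74 with an annotated 3′ untranslated region held the letters in that region, and 88 nt of it were annotated for H2-Bl. Letters in a window show neither binding nor its absence, and whether the sites bear on the ratios was not tested.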

How the data were processed

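The authors deposited 1 table per library with 1 value per gene, taken here as FPKM, since Cuffnorm 2.2.1 is among the tools in the submitters' processing notes, beside TopHat2 2.0.13, SAMtools 0.1.19, Bowtie2 2.2.3 and the build mm10. Settings, annotation, treatment of reads that fit several genes and scaling between libraries are not stated. Per the labels' protocols, RNA was extracted with RNeasy and libraries were made with a stranded TruSeq mRNA kit.

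A count model was not used, as the values are not counts. Genes at 1 FPKM or more in at least 1 library were kept, 11504 of 23284, and log2 ratios used FPKM + 1. Calls at 2-fold and 1.5-fold are rules of size. Fragments were estimated from the low values of genes with 1 annotated transcript, as FPKM per fragment over 1 kb of 0.0987 in the knockout library and 0.103 in the wild-type library, with median transcript lengths of GENCODE M21. The method was also run on simulated counts with known transcript lengths and no reads shared between genes. Such counts follow the assumptions of the method, so that run is no check of the estimates for near-identical genes. Coordinates count from 1 on GRCm38, the assembly of mm10.

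Genes and lists were chosen with earlier results of these data known. All members at 1 FPKM are given. From each other list the text draws on its 6 largest log2 ratios and its most abundant gene, and genes outside that choice were named after their values were seen. Other pseudocounts, filters, scalings and transcript lengths were tried. Python 3.11.15, pandas 2.3.3 and scipy 1.17.1 were used.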

Additional observations from a re-analysis of the deposited data

How the results depend on the processing

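No value past 1.5-fold changed sign under any of the 7 settings of pseudocount, filter and scaling. Of 279 values, 48 were labelled as moved and 231 were not. For genes with a counting interval, a shift was judged beside the width of that interval, not by its size alone. The log2 ratio of H2-Q10 fell from 0.61 to 0.30 with a pseudocount of 5 FPKM and was not labelled as moved. That of H2-K1 went from -0.05 to 0.003 with the median of all genes set to 0 and was. The 231 values were therefore not all stable in size. Signs of small ratios did turn, for H2-K1, Erap1 and H2-Ke2 under all 3 scalings and for Tapbp under 2. With a pseudocount of 5 FPKM the genes 2-fold higher were 2, those 1.5-fold higher 4 and those 1.5-fold lower 1, as Nlrc5, H2-Q6, H2-Q9, H2-Q10, H2-T10 and H2-T9 no longer reached 1.5-fold. With the knockout values scaled to an equal sum or equal upper quartiles, 0 genes were 1.5-fold lower. The medians of class I assembly genes were then 0.11 and 0.10, those of the classical genes 0.18 and 0.16 (0.10 with the median of all genes set to 0), and that of class II 0.23 under the equal sum. Under the equal sum, equal quartiles and a median of 0, the ratios of sums were 1.30, 1.28 and 1.23 for class II, 1.11, 1.10 and 1.05 for classical and 1.12, 1.11 and 1.06 for nonclassical genes. Without H2-Bl and H2-Q7 the nonclassical ratio was 0.791, and without annotated pseudogenes 0.796, both chosen after seeing the data. The cause of these moves was not tested beyond the settings' own construction. Intervals excluding no difference numbered 26 with median, 20 with shortest and 28 with longest transcripts. No class I-like gene outside the complex was kept, so that group has no median. No paired analysis was possible because there is 1 library per genotype. Depth limits the genes near 1 FPKM, where counting error alone was about 28% of the value (coefficient of variation for 1500 nt).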

Other observations

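The receptors and cells that read these molecules were measured in the same libraries. A list of 23 genes held receptors that read class I or class II, ligands of lymphocyte receptors and class I-like chains such as Fcgrt. Of these, 22 were listed and 7 kept. Above 0 were 6 of the 7, against 44% of all kept genes, with a median log2 ratio of 0.22. The co-receptor genes Cd8a and Cd8b1 encode the chains that bind class I, and the alpha chain is also the partner of the H2-T3 product. Cd8a stood at 17.3 FPKM in the knockout library and 12.0 FPKM in the wild-type library, and Cd8b1 at 3.11 FPKM in the knockout library and 1.70 FPKM in the wild-type library. Klrd1, which encodes the CD94 chain that reads the H2-T23 product, had a log2 ratio of 0.11. Cd4, the co-receptor for class II, stood at 1.78 FPKM in the knockout library and 0.924 FPKM in the wild-type library. Fcgrt, the heavy chain of the neonatal Fc receptor, which also pairs with beta-2 microglobulin, stood at 87.9 FPKM in the knockout library and 75.1 FPKM in the wild-type library.

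The wider list of T cell and intraepithelial lymphocyte genes had 11 of 16 above 0, against 44% of all kept genes, with a median of 0.19. Its sum was 492 FPKM in the knockout library and 468 FPKM in the wild-type library. Its members did not go one way, since the receptor chain gene Cd3d stood at 4.93 FPKM in the knockout library and 7.68 FPKM in the wild-type library. The part of these cells in the values of the presentation genes was not tested.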
